A study of Mus musculus with 7 samples.

Results

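The genes described here encode secreted digestive enzymes of the pancreatic acinar cell and proteins of the granules that store them. They are the carboxypeptidase genes Cpa1 and Cpb1, the amylase genes Amy2b and Amy1, the zymogen granule genes Gp2, Sycn and Zg16, and the pancreatic ribonuclease gene Rnase1. Accessible regions were assigned to them when the summit of an ATAC-seq peak had one of these 8 genes as its nearest protein-coding gene, within 50 kb of the gene's span on GRCm38. Merged across the 4 peak lists, this gave 104 regions of 223972 in all. The single lists held 98 member peaks of 140286 in untreated epithelium, 5 of 164684 at day 1, 26 of 145337 at day 7 and 100 of 130149 at day 28. In 2 of the merged regions a further summit was nearest to another gene.

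ATAC-seq reads open chromatin through the insertion of sequencing adapters by Tn5 transposase. The cells were epithelial cells purified from dissociated pancreas of C57BL/6J wild-type mice. The mice were either untreated or given caerulein, a cholecystokinin analogue that overstimulates acinar cells and causes a transient acute pancreatitis, and their pancreas was taken 1, 7 or 28 days later. Neither the age of the mice nor how many went into a preparation is given in the sources used here. With 1 library in each group, no difference below has a replicate check and none was tested. Another 3 libraries of DCLK1-positive epithelial cells from Dclk1-DTR-ZsGreen mice were not analysed here.

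Acinar cells make digestive enzymes in very large amounts, pack them into zymogen granules at the apical pole and release them when cholecystokinin or acetylcholine raises calcium. Their enzyme genes are switched on by a shared set of factors, among them the PTF1 complex, NR5A2 and GATA factors, and acinar cells are known to lower this programme reversibly during pancreatitis. Peaks at these genes therefore follow a cell type and its state together. In a bulk preparation, fewer acinar cells and less open chromatin per acinar cell cannot be told apart.

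The libraries differed in depth and enrichment. The background pileup, the number of fragments covering an average position, was 5.07 for untreated epithelium and 5.35, 2.72 and 2.52 for days 1, 7 and 28. The lowest fold enrichment that still entered a list was 2.47, 2.36, 2.95 and 2.84 in the same order. Fold enrichments are the authors' values and rank peaks within a list. Pileups grow with depth, so a lower pileup at day 7 or 28 than in the untreated library is not by itself a lower enrichment. None of the 98 untreated member peaks had a fold below 2.95, so each lay above the lowest fold of every later list. Since depth and enrichment differed, this does not show that an equally open region would enter a later list. A region is called lost when an untreated peak overlapped no peak of the later list, and gained when a later peak overlapped no untreated peak. Intervals in brackets are exact (Clopper-Pearson) 95% binomial intervals for shares and exact Poisson intervals for pileups, and cover counting error only.

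Sequences of the annotated starts were taken from RefSeq (GRCm38.p6), where 7 of the 8 genes had an entry. The windows run from 250 bases before the first transcribed base to 50 bases after it. Those of 5 genes are shown because their untreated peak there exceeded a fold of 10 and the genes have no near-identical copy in the list. Letters are written 5′ to 3′ on the gene's strand, and capitals mark matches to any of 7 motifs on either strand.
Cpa1: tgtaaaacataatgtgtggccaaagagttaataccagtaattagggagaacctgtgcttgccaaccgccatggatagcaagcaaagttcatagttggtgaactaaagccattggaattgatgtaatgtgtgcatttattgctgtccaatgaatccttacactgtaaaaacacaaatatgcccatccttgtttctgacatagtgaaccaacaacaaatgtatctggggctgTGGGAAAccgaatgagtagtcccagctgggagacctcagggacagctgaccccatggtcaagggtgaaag
Cpb1: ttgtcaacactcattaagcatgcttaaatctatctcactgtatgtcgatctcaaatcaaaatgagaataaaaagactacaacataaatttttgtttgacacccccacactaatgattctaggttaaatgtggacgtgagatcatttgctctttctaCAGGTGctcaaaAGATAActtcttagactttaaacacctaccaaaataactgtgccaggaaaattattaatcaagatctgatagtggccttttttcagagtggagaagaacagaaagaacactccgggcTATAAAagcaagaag
Gp2: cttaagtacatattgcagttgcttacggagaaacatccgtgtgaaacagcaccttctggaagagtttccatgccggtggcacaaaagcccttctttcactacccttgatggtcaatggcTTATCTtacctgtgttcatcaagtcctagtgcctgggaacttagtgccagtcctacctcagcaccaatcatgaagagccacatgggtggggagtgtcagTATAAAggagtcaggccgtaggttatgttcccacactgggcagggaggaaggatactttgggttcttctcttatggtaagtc
Sycn: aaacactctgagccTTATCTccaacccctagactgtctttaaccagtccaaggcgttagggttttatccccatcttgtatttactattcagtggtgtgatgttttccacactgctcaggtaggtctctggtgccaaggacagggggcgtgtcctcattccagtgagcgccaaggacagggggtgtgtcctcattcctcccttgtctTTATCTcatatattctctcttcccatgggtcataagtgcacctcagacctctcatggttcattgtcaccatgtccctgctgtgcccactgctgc
Rnase1: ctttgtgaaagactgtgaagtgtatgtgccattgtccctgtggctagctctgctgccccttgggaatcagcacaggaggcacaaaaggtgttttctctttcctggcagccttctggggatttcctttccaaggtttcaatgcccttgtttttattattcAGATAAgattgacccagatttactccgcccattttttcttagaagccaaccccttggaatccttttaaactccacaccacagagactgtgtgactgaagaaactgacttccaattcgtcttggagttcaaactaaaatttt
The Cpa1 window lies on the plus strand at chr6:30638968-30639267 and the Sycn window on the plus strand at chr7:28540635-28540934. The windows of Cpb1 (chr3:20275684-20275983), Gp2 (chr7:119459223-119459522) and Rnase1 (chr14:51146718-51147017) lie on the minus strand.

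The motifs searched were CACCTG and TTTCCCA (the E-box and TC-box parts of a PTF1 site), AAGGTCA for NR5A2, AGATAA for GATA factors, TGANTCA for AP-1, the cyclic AMP response element (CRE) and, for the TATA box, TATAAA. No matches overlapped one another. AGATAA was found at Cpb1, Gp2, Sycn and Rnase1, that is in 4 of the 8 member windows, and in 11.2% of the 32851 windows of the table. Positions are given for the first letter of a match, counted from the annotated start. In Cpb1 the AGATAA match stood at −82 and an E-box match at −94. In Sycn it occurred at −236 and −44, in Gp2 at −131 and in Rnase1 at −91. TATAAA was found in 4 of the 8 windows, at Cpb1, Gp2, Amy2b and Amy1, against 13.6% of all windows, and stood at −32 in Gp2. In Cpb1 it lay after the annotated first base, at 35. CACCTG was found in 2 windows (Cpb1 and Amy2b) against 20.2% of all, and TTTCCCA in 1 (Cpa1, at −20) against 8.06%. The NR5A2, AP-1 and CRE motifs were found in 0 of the 8 windows and in 4.72%, 7.81% and 1.79% of all. The windows held between 35.0% and 50.3% G and C, against a median of 52.7% over the table. A match describes letters and not a bound site, and 2 of the 8 windows belong to Amy1.

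At these starts, a peak overlapped all 8 windows in the untreated list, and 1 at day 1, 3 at day 7 and 7 at day 28. Of the 21045 windows in the table that belong to protein-coding genes on the chromosomes analysed, 13395, or 63.6%, had an untreated peak. Among these 13395, 4.73% had none at day 1, 2.94% none at day 7 and 3.27% none at day 28. Of the 8 member windows, that of Sycn alone had a peak at day 1. Its folds were 30.3, 3.78, 11.01 and 28.7 for untreated, day 1, day 7 and day 28. The Gp2 start peak, with its untreated summit at −131, had a fold of 29.3 in the untreated list, no peak at days 1 and 7, and a fold of 32.1 at day 28. At Cpa1 the values were 25.2, no peak, 7.52 and 30.9, and at Rnase1 23.9, no peak, 8.06 and 19.9, for untreated, day 1, day 7 and day 28. At Cpb1 the start window had a fold of 11.04 in the untreated list, no peak at days 1 and 7, and 11.07 at day 28. Scaled folds of these start regions in the untreated list and at day 28 were 3.96 and 2.41 at Sycn and 3.83 and 2.70 at Gp2. They were 3.27 and 2.61 at Cpa1, 3.09 and 1.64 at Rnase1, and 1.36 and 0.876 at Cpb1. The Amy2b window held only a weak untreated peak (fold 3.46) and no later one. A peak that overlaps a window can have its summit outside it. Among the windows shown, this held for Cpa1, with summits at −503, −507 and −459 for untreated, day 7 and day 28. It also held for Cpb1 at day 28 (117) and Rnase1 at day 7 (71).

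Over all 8 genes, nearly every untreated region was missing at day 1, most were still missing at day 7, and most were present again at day 28. At day 1, 95 of 98 untreated member regions, 96.9% (91.3 to 99.4), had no peak, against 37.4% of all untreated regions. At day 7, 79 of 98 had none, 80.6% (71.4 to 87.9), against 32.0% of all. At day 28, 15 of 98 had none, 15.3% (8.83 to 23.99), against 27.1% of all. The length covered by member peaks was 52.6 kb in the untreated list, 1.35 kb at day 1, 8.61 kb at day 7 and 52.1 kb at day 28. Over the whole lists it was 70.3, 97.3, 76.7 and 70.9 Mb. Peaks at 6 fibroblast and stellate cell markers covered 32.0, 94.96, 58.8 and 36.8 kb in the same order, and the part of this in the member losses was not tested.

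**Figure D1:**
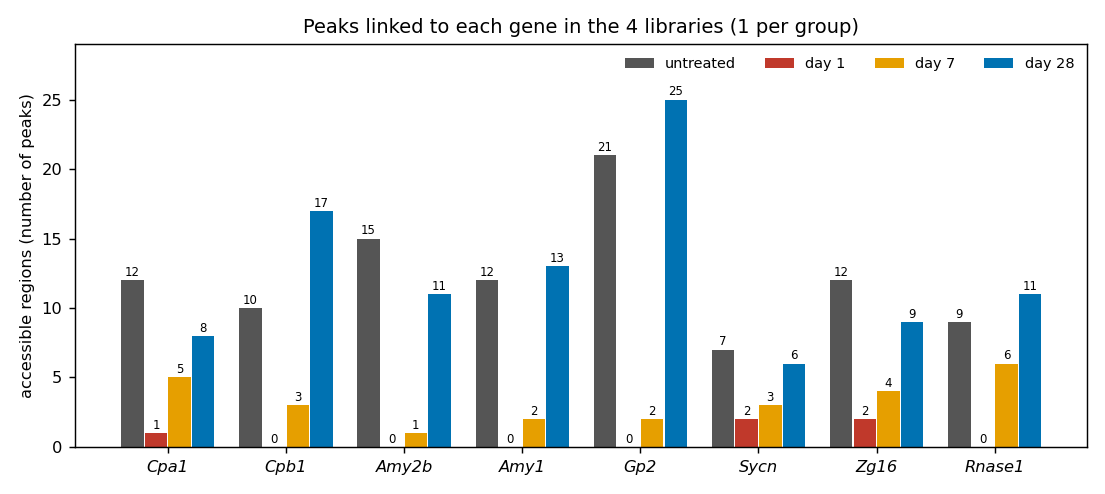
Number of peaks linked to each of the 8 genes (bars, with the count above each) in the untreated, day 1, day 7 and day 28 lists, 1 library each. The day 1 bars stand at 0 for 5 genes and at 1 or 2 for Cpa1, Sycn and Zg16, while the day 28 bars reach 6 to 25.

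The loss at day 1 extended over most of the genes. All untreated regions were lost at 6 of the 8 genes, namely Cpb1, Amy2b, Amy1, Gp2, Zg16 and Rnase1. Of the 7920 genes with at least 5 untreated regions, 1.09% lost all of them. At least 80% were lost at 7 of the 8 genes, against 6.14% of those 7920, and the exception was Sycn with 5 of 7. At day 7, 0 of the 8 genes lacked all their untreated regions, against 0.177% of all genes, and 4 of the 8 (Amy2b, Amy1, Gp2 and Zg16) lacked at least 80%, against 2.07% of all genes. At day 28, 0 of the 8 lacked at least 80%, against 1.67%, and 0 lacked all, against 0.253%. At Cpb1 and Rnase1 every untreated region overlapped a day 28 peak.

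Strong regions were lost at day 1 almost as often as weak ones. Of the 21 untreated member regions with a fold of at least 10, 19 were lost at day 1, 90.5% (69.6 to 98.8), against 13.1% of all untreated regions of that strength. Of the 77 weaker ones, 76 were lost, against 44.6% of all weaker regions. At day 7 the strong member regions were lost in 9 of 21 cases, 42.9% (21.8 to 66.0), against 2.36% of all strong regions, and the weaker ones in 70 of 77, against 40.8%. At day 28 all 21 strong regions were present, which allows a lost share of up to 16.1%, against 0.169% lost among all strong regions. The 15 regions missing at day 28 had untreated folds from 3.13 to 6.92.

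**Figure D2:**
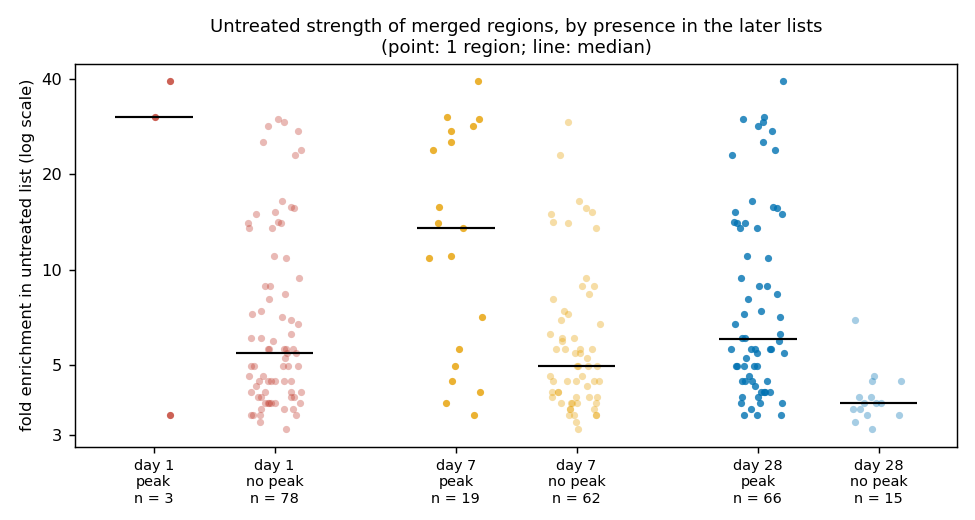
Fold enrichment in the untreated list (log axis) of the 81 merged member regions with an untreated peak, split by whether the day 1, day 7 and day 28 lists held a peak there; each point is 1 region and the line is the median. Regions with a day 7 peak had a median untreated fold of 13.5 and those without one of 4.94, and the 15 regions without a day 28 peak lay between 3.13 and 6.92.

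The carboxypeptidases cleave amino acids from the carboxyl end of peptides, CPA1 mostly aromatic and aliphatic ones and CPB1 basic ones. Cpa1 spans chr6:30639218-30645361. Its peaks numbered 12, 1, 5 and 8 in the untreated, day 1, day 7 and day 28 lists. The strongest overlapped the start of the gene, with its untreated summit at −503 from the first base. It had a summit pileup of 152 fragments (129 to 178) in the untreated library, no peak at day 1, 27 (17.8 to 39.3) at day 7 and 108 (88.6 to 130) at day 28. A weak region 2600 bp before the start, at chr6:30636216-30636828, was in every list, with folds of 3.46, 3.94, 8.86 and 7.66 for untreated, day 1, day 7 and day 28. The scaled folds of this region were 0.332, 0.177, 0.520 and 0.580. This region is the only Cpa1 region that day 1 kept. A cluster of 5 further untreated regions ran from inside the gene to beyond its end, and 1 region before the start, at chr6:30635472-30635752, had a peak at day 28 alone.

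Cpb1 spans chr3:20249479-20275733. It had 10 peaks in the untreated list, 0 at day 1, 3 at day 7 and 17 at day 28. Its strongest region, chr3:20275426-20275864 at the start of the gene, had a pileup of 66 (51.0 to 84.0) in the untreated library, no peak at day 1, 13 (6.92 to 22.2) at day 7 and 38 (26.9 to 52.2) at day 28. All 10 untreated regions were present again at day 28. Beside them stood 7 regions without an untreated peak, 5 of them inside the gene, with day 28 folds of 3.69 to 4.54. As a pair, the carboxypeptidase genes lost 21 of 22 regions at day 1, 15 at day 7 and 1 at day 28. Of all untreated regions, 37.4%, 32.0% and 27.1% were lost on these days.

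Amylases cut starch into maltose and short dextrins; in the mouse Amy2 genes serve the pancreas, and Amy1 is known for its expression in salivary gland and liver. The genes are related copies in a cluster on chromosome 3. How the authors treated reads that match several copies is not given in the sources used here, so the split of signal between copies is uncertain. Amy2b (chr3:113147656-113156727) had 15 peaks in the untreated list, 0 at day 1, 1 at day 7 and 11 at day 28. Its strongest untreated region, chr3:113146718-113148909 over the end of the gene, had a fold of 18.4 at day 28, against 23.1 in the untreated list, and no peak at days 1 and 7. Amy1 (chr3:113555952-113577750) had 12, 0, 2 and 13 peaks. Its region at chr3:113574175-113574568, inside the gene, had folds of 13.5 in the untreated list, 7.52 at day 7 and 19.3 at day 28. The scaled folds were 1.69, 0.431 and 1.59.

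The strong amylase regions were mostly absent at day 7. Of the 8 untreated regions with a fold of at least 10, 6 had no day 7 peak, against 2.36% of all untreated regions of that strength. They are among the 9 of 21 strong regions lost at day 7 over the 8 genes. The strongest untreated region assigned to Amy1, chr3:113545340-113545783, lay outside the gene, 10330 bp past its end. Its fold was 17.03 at day 28, against 15.2 in the untreated list. The scaled fold was 1.40 at day 28, against 1.91 in the untreated list. Over all strengths the amylase genes lost 27 of 27 regions at day 1, and 24 and 6 of them had no peak at days 7 and 28. For all untreated regions the lost shares were 37.4%, 32.0% and 27.1%. The amylase regions missing at day 28 were 5 of Amy2b, with untreated folds of 3.30 to 4.61, and 1 of Amy1. Of the further copies, Amy2a5 had 4, 0, 0 and 4 peaks and Amy2a1 2, 0, 1 and 6, and no list held a peak at Amy2a2, Amy2a3 or Amy2a4.

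The 3 granule genes encode proteins that are stored with the enzymes. GP2 is the main glycoprotein of the zymogen granule membrane, syncollin (Sycn) sits on the inner face of that membrane, and ZG16 is a lectin-like granule protein known from rat pancreas. Together the 3 genes lost 38 of 40 regions at day 1, 34 at day 7 and 8 at day 28, against 37.4%, 32.0% and 27.1% of all untreated regions. Gp2 (chr7:119442537-119459272) had 21 peaks in the untreated list, 0 at day 1, 2 at day 7 and 25 at day 28. Its strongest untreated region, chr7:119456169-119457400 inside the gene, had a pileup of 181 (156 to 209) in the untreated library, no peak at day 1, 13 (6.92 to 22.2) at day 7 and 59 (44.9 to 76.1) at day 28. Its folds in the lists that held it were 29.99, 3.76 and 17.03 for untreated, day 7 and day 28. The start region had a pileup of 112 (92.2 to 135) at day 28, against 177 (152 to 205) in the untreated library. Its fold was 32.1 at day 28 and 29.3 in the untreated list. Within its own list, that fold was at or above those of 88.3% of peaks at day 28 and 91.7% in the untreated list. At day 7 only the first of these regions carried a peak.

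Sycn (chr7:28540885-28542210) kept most at day 1. It had 7 untreated peaks, 2 at day 1, 3 at day 7 and 6 by day 28. The strongest region of all members lay 3694 bp before its start, at chr7:28536773-28537444. Its pileup was 238 (209 to 270) in the untreated library, 28 (18.6 to 40.5) at day 1, 40 (28.6 to 54.5) at day 7 and 149 (126 to 175) at day 28, and the folds were 39.4, 4.57, 11.01 and 42.6. The scaled folds were 5.18, 0.214, 0.662 and 3.62. The region over the start had pileups of 183 (157 to 212), 23 (14.6 to 34.5), 40 (28.6 to 54.5) and 100.0 (81.4 to 122). The background pileups of the day 1 and untreated libraries were 5.35 and 5.07. The intervals cover counting error within 1 library each, and the differences were not tested.

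Zg16 (chr7:127050156-127052675) had 12, 2, 4 and 9 peaks in the untreated, day 1, day 7 and day 28 lists, and it alone held day 1 peaks that the untreated list lacked. All 12 untreated regions were lost at day 1, against 37.4% of all untreated regions. Its strongest region, 9334 bp from the gene at chr7:127061344-127062366, had folds of 28.5 in the untreated list, 8.33 at day 7 and 32.1 at day 28. The scaled folds were 3.72, 0.485 and 2.70. A region 13835 bp from the gene, at chr7:127066369-127066817, had no untreated peak, a fold of 12.9 and a pileup of 81 (64.3 to 101) at day 1, a fold of 5.91 at day 7, and no peak at day 28. A second day 1 peak, at chr7:127063950-127064222 with a fold of 3.47, was in no other list. These made up both of the 2 gained regions among the 5 day 1 peaks, where 52.4% of all day 1 regions were gained.

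Rnase1 encodes the secreted ribonuclease that degrades dietary RNA, and spans chr14:51145002-51146767. It had 9 peaks in the untreated list, 0 at day 1, 6 at day 7 and 11 at day 28. A broad region, chr14:51143014-51146313, reached from beyond its end into the gene. The pileup there was 126 (105 to 150.02) at day 28, against 165 (141 to 192) in the untreated library. Its fold was 36.0 at day 28 and 27.4 in the untreated list. Within its own list, that fold was at or above those of 89.4% of peaks at day 28 and 91.1% in the untreated list. At day 7 the region was broken into 4 separate peaks, of which the highest had a pileup of 26 (16.98 to 38.1). The region over the start had pileups of 144 (121 to 169.5) in the untreated library, 29 (19.4 to 41.6) at day 7 and 69 (53.7 to 87.3) at day 28. Of the 9 untreated regions, 6 were missing at day 7 and 0 at day 28, against 32.0% and 27.1% of all untreated regions.

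**Figure D3:**
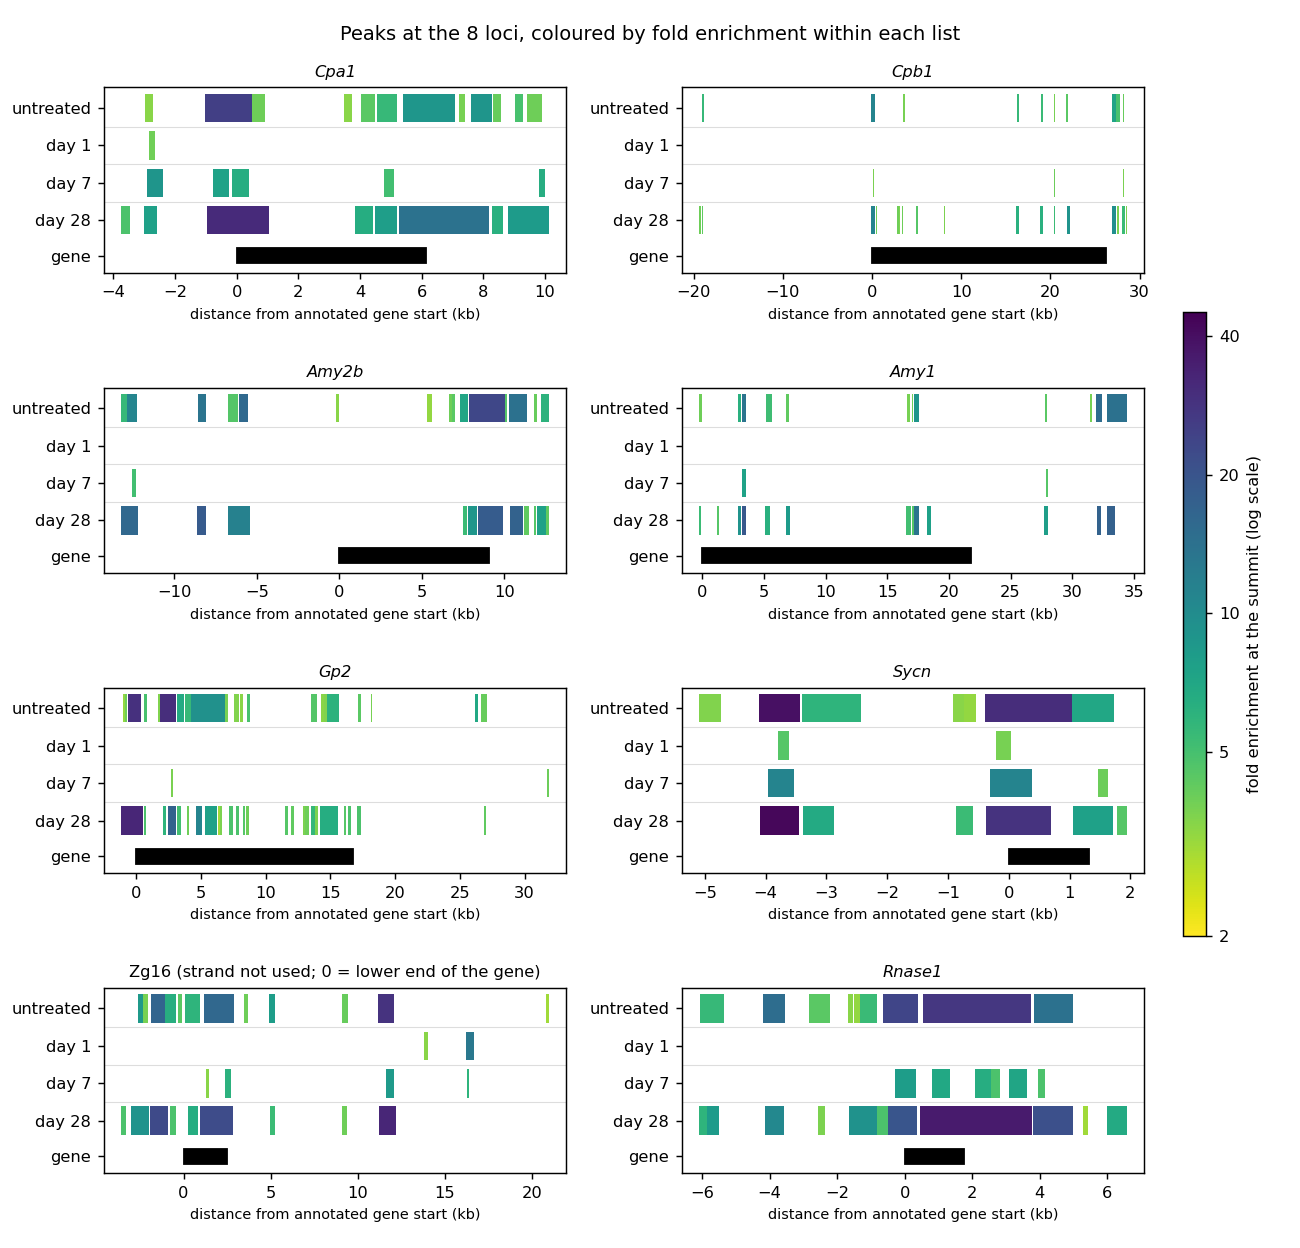
Peaks assigned to each of the 8 genes, drawn as boxes at their distance in kb from the annotated gene start (for Zg16, from the lower end of the gene), in 1 row for each of the untreated, day 1, day 7 and day 28 lists; colour gives the fold enrichment within the list (log scale) and the black bar the gene. The day 1 rows are empty or nearly so, the day 7 rows hold few and weaker boxes, and the day 28 rows repeat most untreated boxes, including the strong ones at Cpa1, Gp2, Sycn and Rnase1.

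Followed through the 4 lists, the 104 merged regions fell mainly into 4 courses. In 47 of them, 45.2%, a peak was present in the untreated list, absent at days 1 and 7 and present at day 28, a course taken by 5.19% of all merged regions. A further 16 were absent only at day 1, 15.4% against 4.77% of all. In 20, 19.2%, a peak appeared only at day 28, against 5.02% of all, and 15 were in the untreated list only, 14.4% against 10.5%. Peaks in all 4 lists, the course of 26.7% of all merged regions, were found in 3. The remaining 3 regions were present at day 1 only, day 7 only, or days 1 and 7, courses taken by 23.0%, 4.49% and 9.31% of all regions. Of the 95 peaks lost at day 1, 16 had a day 7 peak, 16.8% against 27.7% of all regions lost at day 1, and 80 had a day 28 peak, 84.2% (75.3 to 90.9) against 51.0%.

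By position, day 28 peaks were present at most untreated regions inside, upstream and downstream of the genes. Of the 32 merged untreated regions inside a member gene, 0 had a peak at day 1, 5 at day 7 and 26 at day 28. Upstream of the start the counts were 3, 6 and 17 of 19 regions, and downstream of the end 0, 6 and 17 of 21, with Zg16 left out because its strand was not in the table used. By their summits, the 3 regions kept at day 1 were thus all upstream of a gene. Counts by position over all regions are not given, so these do not single out a position for the members. Whatever their position, 37.4%, 32.0% and 27.1% of all untreated regions had no peak at days 1, 7 and 28.

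At day 28 the share of member regions without an untreated peak was near that of the whole list. It was 20 of 100, or 20% (12.7 to 29.2), against 23.7% of all day 28 regions, and at day 7 it was 2 of 26 against 36.0%. The 20 regions are those described above with a peak only at day 28, where the 5.02% was a share of all merged regions and not of the day 28 list. They had day 28 folds of 3.12 to 7.66, and none reached 10. Inside the genes lay 14 of them, 7 in Gp2, 5 in Cpb1 and 2 in Amy1. The highest were in Amy1, at chr3:113559180-113559525 with a fold of 7.66, and past the end of Rnase1, at chr14:51140192-51140788 with a fold of 6.81.

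Other acinar secretory genes also lost most of their regions at day 1, and most were present at day 28. Their list held 31 genes, of which 30 were in the gene table, and 211 of their 254 untreated regions were lost at day 1, 83.1% (77.9 to 87.5). At day 7, 158 were lost, 62.2% (55.9 to 68.2), and at day 28, 18, or 7.09% (4.25 to 10.97). The shares over all untreated regions were 37.4%, 32.0% and 27.1% for days 1, 7 and 28. Of the 20 genes with at least 4 untreated regions, 5 lost every one at day 1. Among these were the bile salt-activated lipase gene Cel (9 of 9), Reg1 (9 of 9) and the trypsinogen genes Try4 (7 of 7) and Try10 (6 of 6). Of all genes with at least 5 untreated regions, 1.09% lost every one. Among the lowest shares were those of the chymotrypsinogen gene Ctrb1 (2 of 5), the elastase gene Cela3a (4 of 7) and the lipase-related gene Pnliprp2 (4 of 6). Genes of 1 cell type share their libraries, so these are not independent observations.

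Over the 4 lists, the genes whose courses were most like those of the members were Dmbt1, Cela3b, Pnliprp1, Homer2 and Cep57l1. Likeness was the distance between the 4 shares of a gene's merged regions present in each list and the members' shares of 77.9%, 4.81%, 20.2% and 82.7% for untreated, day 1, day 7 and day 28, among 10391 genes with at least 5 merged regions. For Dmbt1, with 58 merged regions, the shares were 74.1%, 5.17%, 17.2% and 79.3%, a distance of 5.86 percentage points. The distances of the other 4 genes ran from 6.56 to 11.6.

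Peak numbers at markers of other cells also differed between the lists. The numbers of peaks at 6 fibroblast and stellate cell markers were 78, 123, 98 and 83 in the untreated, day 1, day 7 and day 28 lists, and 4 of the 78 untreated regions were lost at day 1, 5.13% (1.41 to 12.6). From the untreated list to day 1 these numbers rose mainly at Col1a2 (14 to 35), Dcn (4 to 23) and Lum (0 to 5). They changed little at Pdgfra (16 to 18), Col1a1 (23 in both) and Pdgfrb (21 to 19). At the 4 pan-epithelial markers (Epcam, Cdh1, Krt8 and Krt18) the numbers were 85, 34, 72 and 77, with 59 of 85 lost at day 1, 69.4% (58.5 to 79.0), and at 5 duct markers 65, 48, 60 and 58, with 34 of 65 lost. The share lost at day 1 over all untreated regions was 37.4%. Endothelial markers had 75, 78, 87 and 52 peaks, leukocyte markers 15, 18, 12 and 11, with Adgre1 at 0 in every list and Cd3e at 0 in the untreated and day 1 lists, and endocrine markers 15, 13, 18 and 20, with Ins1 at 0 in the untreated and day 1 lists and Ins2 at 0 at day 28. Lum, a fibroblast marker, was at 0 in the untreated list. At 5 ubiquitous genes 22, 28, 30 and 24 peaks covered 23.2, 23.0, 23.0 and 22.6 kb. The part of the cell make-up of each preparation in the member losses was not tested. Every pan-epithelial marker gene had a peak in every list, and so did every one of the 6 acinar markers, which include Cpa1 and had 84, 26, 64 and 87 peaks.

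**Figure D4:**
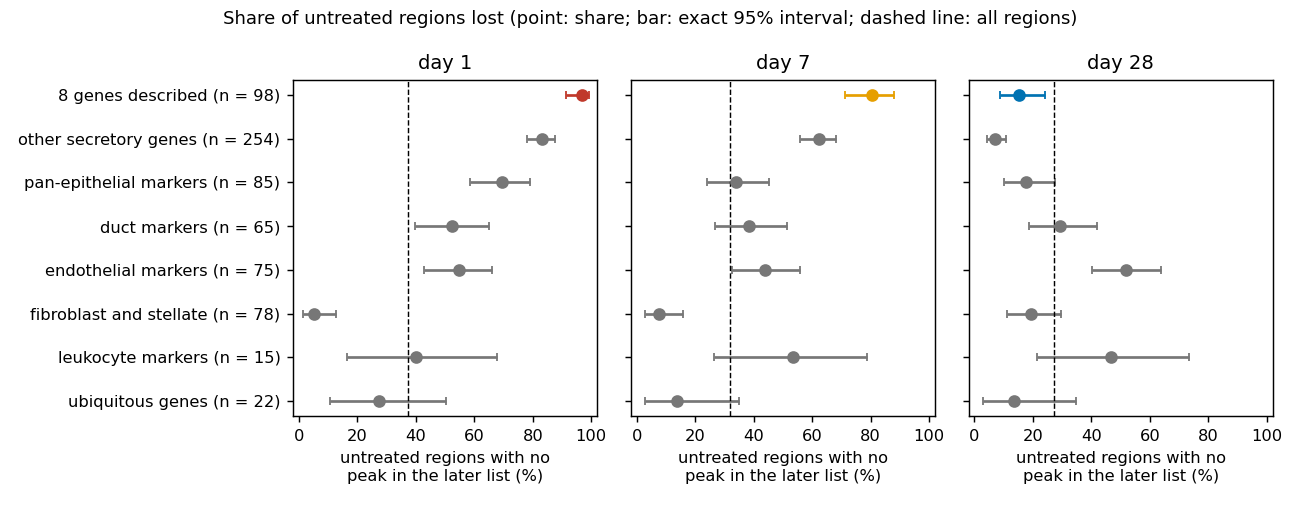
Share of untreated regions without a peak at day 1, day 7 and day 28 (percent; points with exact 95% binomial intervals) for the 8 genes, the other secretory genes and lists of marker genes, with the number of untreated regions in brackets; the dashed line is the share over all untreated regions. The 8 genes lie farthest right at days 1 and 7, at 96.9% and 80.6%, and left of the dashed line at day 28, at 15.3%, while fibroblast and stellate markers lie at 5.13% at day 1.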

How the data were processed

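ATAC-seq peak lists of purified pancreatic epithelium were used, 1 each for untreated mice and days 1, 7 and 28 after caerulein; titles gave the groups. MACS2 2.1.0.20150731, Bowtie2 2.2.6, deepTools, SAMtools, cutadapt and the build GRCm38 (mm10) are listed in the submitters' processing notes. Their options, the read filters and any Tn5 shift are not stated in the sources used here. The fold enrichment that the authors deposited is the ratio of the summit's pileup to its expected level. The authors also deposited −log10 of the p-value and of the q-value for each summit, and the deposited score is 10 times −log10 q in 100% of rows. The summit offset was also read from the deposited files.

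Pileups were recovered from the folds, taken as (pileup + 1) / (background + 1). With 1 background per list, 100% were whole within 0.05 and 100% matched a Poisson p. The lowest was 14, 14, 10 and 9. Peaks on chromosomes 1 to 19 and X were linked to RefSeq GRCm38.p6 gene spans and compared by overlap of at least 1 bp. Linking, overlap (also against bedtools) and recovery were checked on simulated data. Python 3.11.15, pandas 2.3.3 and scipy 1.17.1 were used. No p-value was computed, as groups held 1 library. The alternatives are those of the closing section. Exons and introns were not separated, and sequences of peaks were not used, since no genome was at hand.

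The members, gene lists and motifs were chosen with earlier results of these data known. For each member, the regions named were the strongest of each list, those at gene ends and the strongest without an untreated peak; regions in all lists or gained at day 1 were named after their values were seen. Of the other secretory genes, the rule named 4 with the highest and 4 with the lowest share lost, and 1 of these is not reported here.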

Additional observations from a re-analysis of the deposited data

How the results depend on the processing

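The shares of member regions lost and gained were recomputed with links within 10 or 100 kb, only peaks of −log10 q of at least 5 in all lists or only where present, an overlap of at least 50% of the shorter peak, the summit inside the other list's peak, and a common enrichment floor scaled to each library. These 7 alternatives gave 42 values, of which 40 stayed within the interval of the reported value. The intervals of the gained shares were wide, 5.27 to 85.3 at day 1 and 0.946 to 25.1 at day 7. Staying within those 2 intervals therefore says little. Under them the lost share ran from 96.7% to 98.98% at day 1, from 79.6% to 84.9% at day 7 and from 13.98% to 20.4% at day 28. With links within 10 kb the gained share was 0% at day 1 (0 of 3) and 0% at day 7 (0 of 23), since the gained regions lay farther away. Within the subset of untreated regions with a fold of at least 10, a choice made after seeing the data, the lost shares for days 1, 7 and 28 were 90.5%, 42.9% and 0%. The number of untreated regions lost at day 1 stayed within 1.5 times its value for each of the 8 genes under the 3 alternatives tried for it. No paired analysis was possible because each group has 1 library. Leaving out a replicate was not possible either. Depth limits the day 7 and day 28 lists most: their backgrounds were 2.72 and 2.52, so weak regions could be missed there.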
